A study of Homo sapiens with 82 samples.

Results

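The genes described here are 10 regulators of cell fate in the intestinal epithelium, followed through HT29 cells treated with agonists of 2 families of nuclear receptor. They were found by gene symbol in tables of 51838 Ensembl genes, each symbol had 1 row, and all 10 passed the filter for low counts in every comparison. Of these genes, 9 encode transcription factors (ATOH1, SPDEF, GFI1, NEUROG3, POU2F3, HES1, CDX1, CDX2 and SOX9), and DLL1 encodes a ligand of Notch receptors. HT29 is a cell line from a human colorectal adenocarcinoma that can form both absorptive and mucus-secreting cells in culture. Cells were held in medium with charcoal-treated serum and then received either the vehicle DMSO or 1 of the drugs rosiglitazone, GW3965 and T0901317 at 10 μM, for 24 or 48 h. GW3965 and T0901317 are agonists of the liver X receptors (LXRs), which sense oxysterols, and rosiglitazone is an agonist of PPARG, which senses fatty acids. RNA-seq was performed on 4 replicates of each of these 8 groups, 32 libraries in all, so that at either time the 3 drugs are set against the same 4 DMSO libraries.

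In the intestinal crypt, a dividing progenitor becomes either absorptive or secretory, and the choice runs through Notch signaling. A cell that displays the ligand DLL1 activates Notch in its neighbors, where the Notch nuclear complex with RBPJ switches on HES1. HES1 is a repressor that silences ATOH1, and cells that keep ATOH1 enter the secretory lineage. Downstream of ATOH1, SPDEF and GFI1 act in goblet and Paneth cells, and NEUROG3 starts the enteroendocrine program. POU2F3 is the master regulator of tuft cells, which sense chemical signals in the gut lumen. CDX1 and CDX2 are homeobox factors that set intestinal identity and enterocyte genes, and SOX9 is active in stem and Paneth cells.

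The promoters of 4 genes are shown because the 3 secretory factors among them moved together with rosiglitazone and because HES1 and ATOH1 are linked by repression. RefSeq windows of 300 bases (250 before the transcription start site and 50 after it, build GRCh38.p14) were found for 6 of the 10 genes. The letters in capitals mark every match on either strand of the N-box CACNAG, a sequence bound by HES proteins, of TGGGAA, the core bound by RBPJ, and of CAGCTG, an E-box of the kind bound by ATOH1.
HES1 (chr3:194135898-194136197, plus strand): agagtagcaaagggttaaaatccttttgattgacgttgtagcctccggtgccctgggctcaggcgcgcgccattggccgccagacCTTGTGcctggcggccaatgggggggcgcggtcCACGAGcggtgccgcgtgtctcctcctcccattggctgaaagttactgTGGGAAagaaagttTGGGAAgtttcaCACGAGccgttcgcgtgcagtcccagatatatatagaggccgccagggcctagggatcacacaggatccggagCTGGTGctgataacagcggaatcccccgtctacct
ATOH1 (chr4:93828503-93828802, plus strand): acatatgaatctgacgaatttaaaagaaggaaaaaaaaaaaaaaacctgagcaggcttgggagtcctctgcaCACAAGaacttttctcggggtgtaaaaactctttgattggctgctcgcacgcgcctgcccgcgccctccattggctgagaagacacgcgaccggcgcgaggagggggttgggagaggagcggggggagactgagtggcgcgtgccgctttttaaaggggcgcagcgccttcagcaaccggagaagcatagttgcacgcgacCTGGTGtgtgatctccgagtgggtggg
NEUROG3 (chr10:69573373-69573672, minus strand): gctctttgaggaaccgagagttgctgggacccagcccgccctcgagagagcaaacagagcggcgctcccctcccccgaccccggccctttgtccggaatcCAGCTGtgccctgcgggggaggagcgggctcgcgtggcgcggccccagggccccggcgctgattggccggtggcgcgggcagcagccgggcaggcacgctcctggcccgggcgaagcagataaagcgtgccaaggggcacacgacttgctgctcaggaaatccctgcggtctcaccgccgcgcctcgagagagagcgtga
SPDEF (chr6:34556280-34556579, minus strand): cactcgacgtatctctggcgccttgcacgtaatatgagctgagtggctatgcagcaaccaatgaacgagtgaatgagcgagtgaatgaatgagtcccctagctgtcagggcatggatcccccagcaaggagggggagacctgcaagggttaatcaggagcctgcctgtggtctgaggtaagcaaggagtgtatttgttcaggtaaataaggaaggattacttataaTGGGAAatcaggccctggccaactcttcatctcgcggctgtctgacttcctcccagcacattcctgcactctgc

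HES1 held 4 N-boxes, of which 3 began 165, 132 and 58 bases before the start site and 1 began 15 bases after it, and 2 RBPJ cores that began 84 and 70 bases before it. An N-box occurred in 38% and an RBPJ core in 24% of 35116 RefSeq windows of the same length. ATOH1 had 2 N-boxes and no RBPJ core, NEUROG3 had 1 CAGCTG 150 bases before the start site, and SPDEF had 1 RBPJ core 24 bases before it. CAGCTG was found in 17.9% of all windows. The nuclear receptor half-site AGGTCA, which LXRs and PPARG can read, was found in none of the 4 windows shown. It was found once in 1 of 3 windows of GFI1 (chr1:92486876-92487175), 137 bases before the start site, not in the window of CDX2, and in 13.8% of all windows. The AP1 site TGANTCA was found in none of the 8 windows of these 6 genes and in 7.71% of all. Of the windows not shown, 1 of GFI1 held 1 N-box, another of GFI1 held 1 RBPJ core, and that of CDX2 held 2 N-boxes. These are matches of letters, and binding at these promoters was not analysed here.

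Total counts ran from 21044798 to 51332656 per library, and levels are given as CPM, the library's counts of a gene relative to its total, after TMM scaling. All 12 markers of intestinal epithelium were detected in every library (EPCAM at 241 to 365 CPM, KRT8 at 7104 to 11086 CPM), and most markers of other cell types were at or near 0. Of 8 fibroblast genes, 6 (VIM, DCN, COL1A2, COL3A1, PDGFRA and PDGFRB) had at most 11 counts in any library, while COL1A1 had 80 to 432 and LUM 7 to 77. Among the leukocyte genes, PTPRC, CD3E, MS4A1 and CSF1R had at most 11 counts, while CD14 had 15 to 188, ITGAM 19 to 243 and LYZ 11072 to 37816. Of 4 endothelial genes, CDH5 and KDR had at most 6 counts, VWF at most 28 and TEK 3 to 85. The summed CPM of the 8 fibroblast genes ran from 3.78 to 10.1 and mostly came from COL1A1, that of the 4 endothelial genes found in the tables ran from 0.259 to 2.20, and that of the 8 leukocyte genes ran from 454 to 754 and mostly came from LYZ, which is also a Paneth cell gene. At 48 h LYZ rose with T0901317 (0.61 ± 0.05, adjusted p = 1.79e-08, log2 fold change with its SE) and GW3965 (0.27 ± 0.05, adjusted p = 2.25e-04), CD14 rose with both (2.54 ± 0.19, adjusted p = 3.11e-09 and 1.94 ± 0.19, adjusted p = 1.29e-07) and COL1A1 rose with GW3965 (0.53 ± 0.12, adjusted p = 8.68e-04), and at 24 h CD14 rose with T0901317 (0.86 ± 0.16, adjusted p = 0.004) and LYZ (0.26 ± 0.06, adjusted p = 0.00684) and LUM (1.21 ± 0.21, adjusted p = 4.04e-04) rose with rosiglitazone. ITGAM, TEK and VWF did not pass with any drug. The part of these genes in the results was not tested. The libraries that lay farthest from their own group were GW3965 replicate 1 at 24 h and rosiglitazone replicates 3 and 1 at 48 h. In this line, lower RNA in every cell cannot be told apart from fewer cells of one type, since whole cultures were measured.

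**Figure D1:**
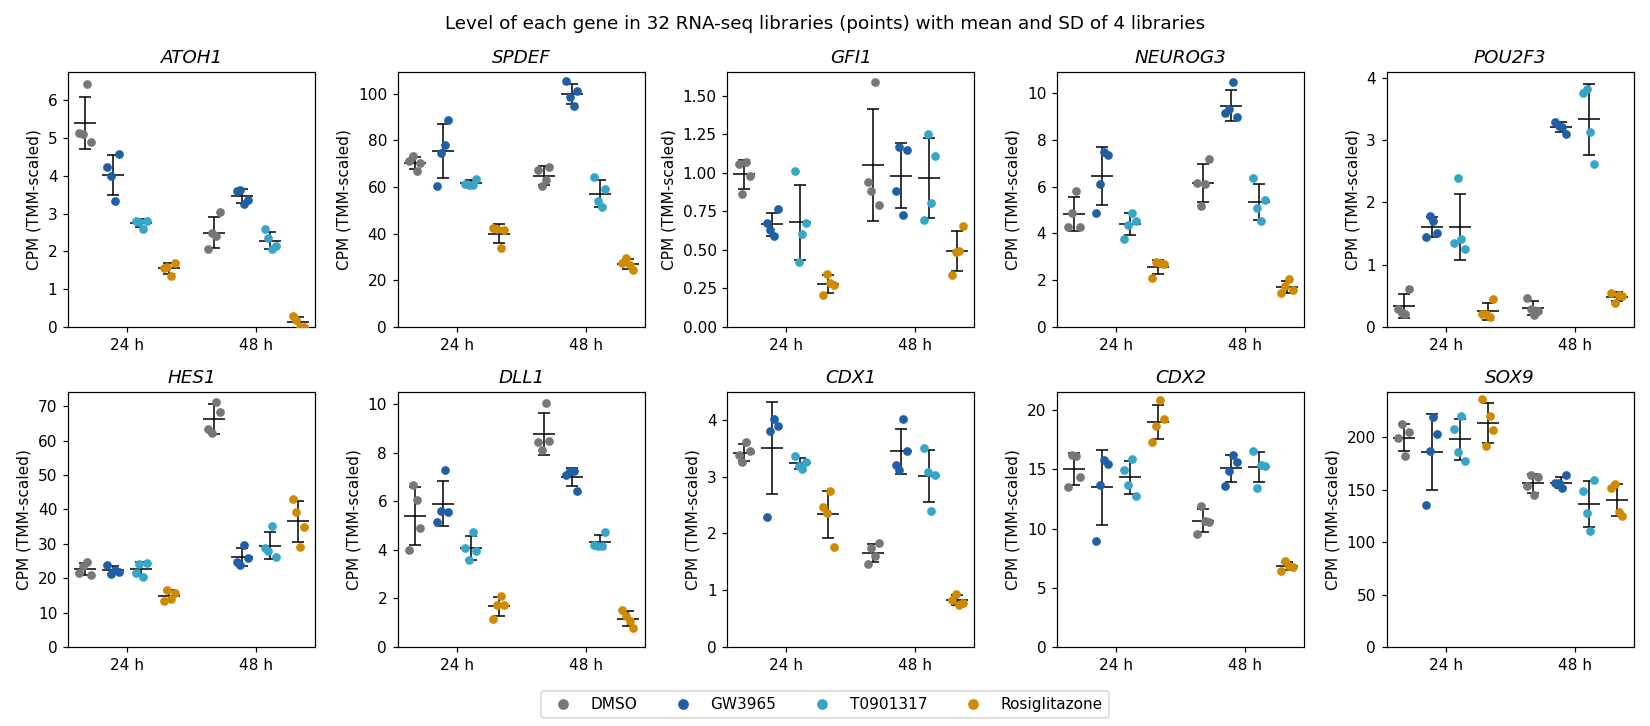
Level of each of the 10 genes in CPM (y axis, linear from 0, one scale per gene) in every library at 24 and 48 h, colored by treatment; bars show the mean and SD of 4 libraries. Rosiglitazone libraries lie lowest for ATOH1, SPDEF and NEUROG3 at both times, POU2F3 is highest with the 2 LXR agonists, and HES1 is highest in the DMSO libraries at 48 h.

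Across the genes, rosiglitazone lowered most of these regulators, whereas the LXR agonists raised POU2F3 at both times and lowered HES1 at 48 h. A gene passed where the Benjamini-Hochberg adjusted p from edgeR's quasi-likelihood test was under 0.01, and it was called 2-fold where the fold change also reached 2. With rosiglitazone at 24 h, 6 of 10 genes were lower and 3 of these were called 2-fold, where 6.52% of all genes tested were lower, 5.81% were higher and 2.18% were called 2-fold. At 48 h, 8 of 10 were lower and 6 were called 2-fold, where 13.1% of all genes were lower, 12.3% were higher and 5.86% were called 2-fold. The median log2 fold change of the 10 genes was -0.716 at 24 h and -1.08 at 48 h, beside -0.0189 and -0.0115 over all genes. Without rosiglitazone replicates 1 and 3 at 48 h, which stood apart, 7 genes were lower and 4 were called 2-fold, where 19.4% of all genes passed in either direction. The shares of all genes that were lower or called 2-fold were not counted in that fit. GFI1 lost its call (-0.91, adjusted p = 0.0629) and CDX1 passed at less than 2-fold (-0.96).

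GW3965 changed 1 of the 10 genes at 24 h, POU2F3, which was called 2-fold with and without GW3965 replicate 1. Among all genes, 1.86% were higher, 0.868% were lower and 0.537% were called 2-fold. T0901317 raised POU2F3, called 2-fold, and lowered ATOH1 at 24 h, where 1.33% of all genes were higher, 0.119% were lower and 0.28% were called 2-fold. Without DMSO replicate 2 or without DMSO replicate 4, 2 genes were called 2-fold with T0901317. At 48 h, 5 of 10 genes were higher and 1 was lower with GW3965, 3 of them called 2-fold, where the background was 16.1% higher, 17.5% lower and 5.77% called 2-fold. With T0901317, 3 were higher and 2 were lower at 48 h, 3 of them called 2-fold, where the background was 14% higher, 16.1% lower and 5.4% called 2-fold.

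**Figure D2:**
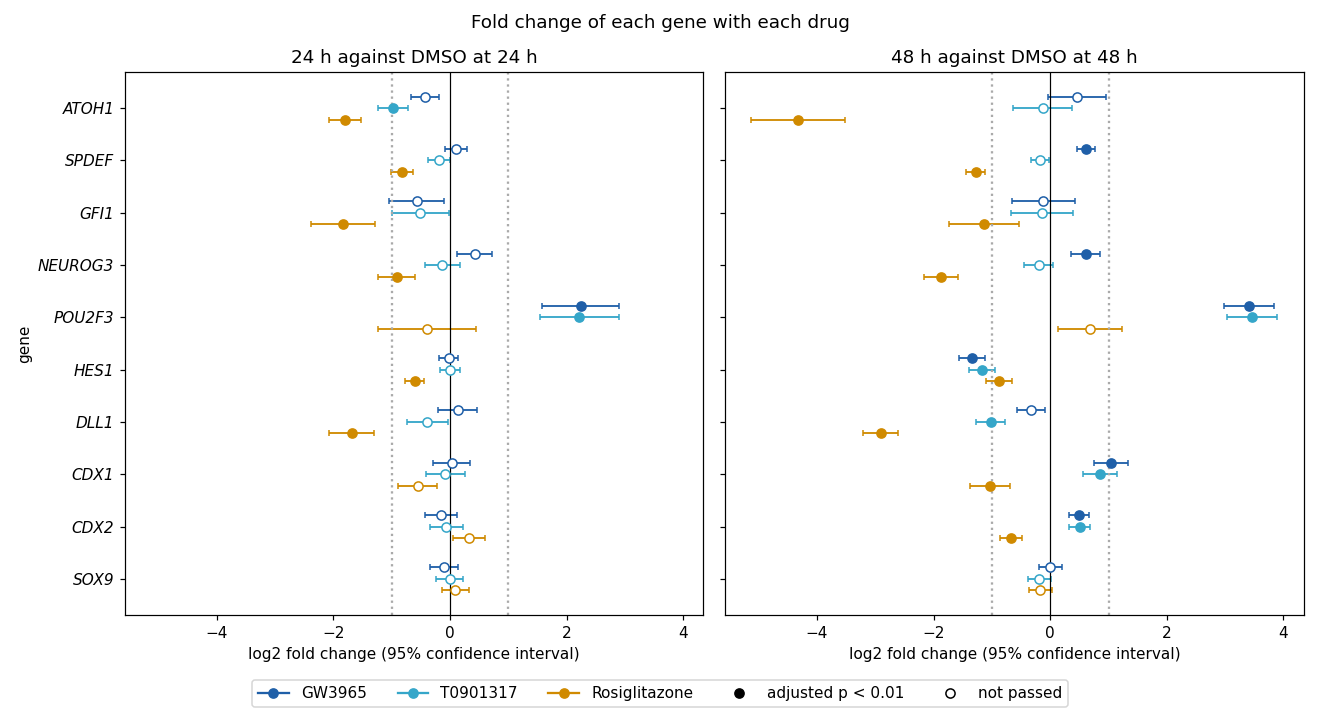
Log2 fold change against DMSO of the same time point (x axis, with 95% confidence interval) for each gene (y axis) with GW3965, T0901317 and rosiglitazone; filled points passed and open points did not, and dotted lines mark a 2-fold change. ATOH1 and DLL1 stand farthest to the left with rosiglitazone at 48 h, and POU2F3 stands farthest to the right with both LXR agonists.

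ATOH1, the switch into the secretory lineage, was highest with DMSO at 24 h and lowest with rosiglitazone at 48 h. At 24 h its level was 5.15, 5.11, 6.43 and 4.91 CPM with DMSO, 4.24, 3.99, 3.33 and 4.58 CPM with GW3965, 2.82, 2.77, 2.59 and 2.80 CPM with T0901317 and 1.56, 1.59, 1.36 and 1.71 CPM with rosiglitazone. Every drug library lay below every DMSO library. The log2 fold change was -1.80 ± 0.13 (SE, adjusted p = 4.53e-09) with rosiglitazone and -0.98 ± 0.12 (SE, adjusted p = 4.13e-05) with T0901317, and it was -0.42 ± 0.11 (SE, adjusted p = 0.0385) with GW3965, which did not pass. At 48 h the levels were 2.06, 2.48, 2.42 and 3.05 CPM with DMSO, 3.61, 3.63, 3.26 and 3.37 CPM with GW3965, 2.59, 2.35, 2.07 and 2.14 CPM with T0901317 and 0.288, 0.194, 0 and 0 CPM with rosiglitazone. The rosiglitazone libraries held 11, 6, 0 and 0 counts, so the gene was near the limit of detection there, where 3 counts, the upper limit that a count of 0 allows, correspond to 0.0817 CPM in replicate 3 and 0.0981 CPM in replicate 4. These floors cover counting error only. The fitted log2 fold change with rosiglitazone was -4.32 ± 0.38 (SE, adjusted p = 5.08e-08). It ranged from -5.30 without replicate 1 to -3.88 without replicate 3 of that group. The ends of this range lie outside that SE, which understates how far the value depends on single libraries at such low counts. GW3965 gave 0.47 ± 0.24 (SE, adjusted p = 0.12) at 48 h, with all 4 libraries above the DMSO libraries, and T0901317 gave -0.13 ± 0.24 (SE, adjusted p = 0.706), and neither passed. The GW3965 value passed with DESeq2 (0.48, adjusted p = 0.00941) and in a fit of only the groups compared (0.47, adjusted p = 0.00832). Over the 8 groups ATOH1 was highest with DMSO at 24 h, followed by GW3965 at both times, whose libraries overlapped, then by T0901317 at 24 h, DMSO at 48 h and T0901317 at 48 h, which overlapped as well, and last by rosiglitazone at 24 h and at 48 h.

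SPDEF and GFI1, factors of goblet and Paneth cells, were lower with rosiglitazone at both times. SPDEF stood at 71.2, 73.2, 66.9 and 70.2 CPM with DMSO and 42.4, 41.8, 33.9 and 41.6 CPM with rosiglitazone at 24 h, and at 67.4, 60.3, 62.8 and 68.8 CPM and 27.5, 29.8, 26.5 and 24.5 CPM at 48 h. Its log2 fold change was -0.82 ± 0.09 (SE, adjusted p = 1.77e-06) at 24 h and -1.28 ± 0.08 (SE, adjusted p = 1.57e-10) at 48 h, and the groups did not overlap at either time. With GW3965, SPDEF reached 105, 98.4, 94.7 and 101 CPM at 48 h, above every other group, with a log2 fold change of 0.62 ± 0.07 (SE, adjusted p = 1.09e-06), whereas T0901317 gave -0.18 ± 0.07 (SE, adjusted p = 0.0555). At 24 h SPDEF ran from 60.3 to 88.6 CPM with GW3965, which overlapped DMSO. With T0901317 it ran from 60.9 to 63.5 CPM at 24 h, below every DMSO library, and neither passed.

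GFI1, a zinc finger repressor, was measured at low counts, from 8 to 12 per rosiglitazone library at 24 h and from 27 to 45 per DMSO library. Its levels with DMSO were 1.05, 0.862, 1.07 and 0.981 CPM at 24 h and 0.940, 0.885, 1.59 and 0.790 CPM at 48 h, and those with rosiglitazone were 0.207, 0.346, 0.284 and 0.274 CPM and 0.340, 0.486, 0.490 and 0.654 CPM. The groups did not overlap at either time. The log2 fold change was -1.84 ± 0.26 (SE, adjusted p = 3.56e-05) at 24 h and -1.14 ± 0.29 (SE, adjusted p = 0.00394) at 48 h. The call at 48 h was lost without DMSO replicate 3 (-0.85, adjusted p = 0.0268), without rosiglitazone replicate 1 (-0.98, adjusted p = 0.0151) and without rosiglitazone replicate 2 (-1.13, adjusted p = 0.0105). Neither LXR agonist changed GFI1 past the threshold at either time, with 95% intervals of -0.65 to 0.42 for GW3965 and -0.67 to 0.39 for T0901317 at 48 h. At 24 h its level ran from 0.591 to 0.763 CPM with GW3965, below every DMSO library. With T0901317 it ran from 0.423 to 1.01 CPM and overlapped DMSO.

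NEUROG3, the factor that opens the enteroendocrine lineage, went down with rosiglitazone at both times and up with GW3965 at 48 h. With DMSO it stood at 4.27, 4.89, 5.82 and 4.29 CPM at 24 h and 6.17, 5.19, 6.12 and 7.20 CPM at 48 h. Rosiglitazone libraries held 2.10, 2.77, 2.72 and 2.68 CPM and 1.44, 1.75, 2.04 and 1.57 CPM, all below the DMSO libraries, with log2 fold changes of -0.92 ± 0.15 (SE, adjusted p = 2.07e-04) and -1.88 ± 0.14 (SE, adjusted p = 3.74e-09). GW3965 brought the gene to 9.14, 9.32, 10.5 and 8.96 CPM at 48 h, its highest level among the 8 groups, with a log2 fold change of 0.61 ± 0.12 (SE, adjusted p = 2.92e-04). T0901317 gave 6.39, 5.08, 4.55 and 5.44 CPM and -0.20 ± 0.12 (SE, adjusted p = 0.201) at 48 h, which did not pass. At 24 h the levels were 4.87, 6.13, 7.49 and 7.35 CPM with GW3965 and 3.78, 4.37, 4.89 and 4.55 CPM with T0901317. Both groups overlapped DMSO and neither passed.

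POU2F3, the tuft cell regulator, rose with both LXR agonists. DMSO libraries held 7 to 22 counts at 24 h and 8 to 16 counts at 48 h, that is 0.294, 0.224, 0.214 and 0.617 CPM and 0.470, 0.295, 0.195 and 0.254 CPM. At 24 h the levels were 1.44, 1.78, 1.70 and 1.51 CPM with GW3965 and 1.35, 2.40, 1.41 and 1.26 CPM with T0901317, and at 48 h they were 3.30, 3.22, 3.22 and 3.10 CPM and 3.76, 3.83, 3.14 and 2.61 CPM. All LXR agonist libraries lay above all DMSO and all rosiglitazone libraries of the same time. The log2 fold change was 2.24 ± 0.32 (SE, adjusted p = 9.83e-05) and 2.22 ± 0.32 (SE, adjusted p = 2.63e-04) at 24 h, and 3.40 ± 0.21 (SE, adjusted p = 1.99e-10) and 3.46 ± 0.21 (SE, adjusted p = 1.56e-10) at 48 h, for GW3965 and T0901317. Rosiglitazone gave -0.40 ± 0.40 (SE, adjusted p = 0.553) at 24 h and 0.68 ± 0.26 (SE, adjusted p = 0.0465) at 48 h, neither of which passed. Without DMSO replicate 1, the value at 48 h was 0.97 and passed (adjusted p = 0.00814).

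HES1, the Notch-induced repressor, was lower with every drug at 48 h, and at 24 h only rosiglitazone passed. At 24 h the levels were 21.7, 23.7, 24.6 and 20.9 CPM with DMSO and 13.5, 16.7, 13.8 and 15.8 CPM with rosiglitazone, with a log2 fold change of -0.61 ± 0.08 (SE, adjusted p = 1.83e-05). The intervals for the LXR agonists at 24 h were -0.19 to 0.14 for GW3965 and -0.17 to 0.16 for T0901317. By 48 h, DMSO libraries had reached 63.3, 62.2, 71.3 and 68.4 CPM. The drug libraries of that time held 24.8, 24.0, 29.8 and 25.9 CPM with GW3965, 28.7, 28.0, 35.2 and 26.2 CPM with T0901317 and 42.9, 39.3, 29.1 and 34.8 CPM with rosiglitazone, all below the DMSO libraries. The log2 fold change was -1.35 ± 0.11 (SE, adjusted p = 7.44e-09) with GW3965, -1.17 ± 0.11 (SE, adjusted p = 4.63e-08) with T0901317 and -0.88 ± 0.11 (SE, adjusted p = 2.38e-06) with rosiglitazone. Between 24 and 48 h, HES1 rose in DMSO cells by 1.54 ± 0.10 (SE, adjusted p = 1.78e-14) on the log2 scale.

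DLL1, the Notch ligand, showed a graded set of levels at 48 h. It was highest with DMSO at 8.43, 8.11, 10.0 and 8.47 CPM, followed by GW3965 at 7.08, 7.23, 7.22 and 6.43 CPM and T0901317 at 4.19, 4.15, 4.16 and 4.73 CPM, and lowest with rosiglitazone at 1.54, 1.26, 1.09 and 0.785 CPM. No library of one of these groups overlapped the next. The log2 fold change was -2.91 ± 0.14 (SE, adjusted p = 1.18e-11) with rosiglitazone and -1.02 ± 0.12 (SE, adjusted p = 1.15e-06) with T0901317, and that of GW3965, -0.33 ± 0.12 (SE, adjusted p = 0.0261), did not pass. The GW3965 value passed with DESeq2 (-0.32, adjusted p = 0.0095) and in a fit of only the groups compared (-0.33, adjusted p = 0.00567). At 24 h DLL1 was already lower with rosiglitazone, at 1.17, 1.73, 2.12 and 1.74 CPM beside 3.97, 6.68, 6.03 and 4.91 CPM with DMSO, a log2 fold change of -1.69 ± 0.18 (SE, adjusted p = 1.36e-06). Levels with GW3965 (5.16 to 7.27 CPM) and T0901317 (3.57 to 4.75 CPM) overlapped DMSO at 24 h, and neither passed.

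CDX1 and CDX2, the homeobox factors of intestinal identity, moved in opposite directions with the LXR agonists and rosiglitazone at 48 h. CDX1 stood at 1.47, 1.74, 1.61 and 1.83 CPM with DMSO, 3.21, 3.11, 4.01 and 3.45 CPM with GW3965, 3.51, 3.09, 2.40 and 3.03 CPM with T0901317 and 0.836, 0.940, 0.735 and 0.785 CPM with rosiglitazone. Its log2 fold change was 1.05 ± 0.14 (SE, adjusted p = 5.47e-06), 0.85 ± 0.14 (SE, adjusted p = 6.54e-05) and -1.03 ± 0.17 (SE, adjusted p = 6.23e-05) in that order of drugs. For CDX2 the levels were 9.55, 11.9, 10.7 and 10.6 CPM with DMSO, 13.6, 14.9, 16.2 and 15.6 CPM with GW3965, 16.5, 13.5, 15.4 and 15.3 CPM with T0901317 and 6.46, 7.23, 6.89 and 6.74 CPM with rosiglitazone. The CDX2 log2 fold changes were 0.49 ± 0.08 (SE, adjusted p = 8.88e-05), 0.51 ± 0.08 (SE, adjusted p = 7.27e-05) and -0.67 ± 0.09 (SE, adjusted p = 8.76e-06). For both genes the LXR agonist libraries lay above, and the rosiglitazone libraries below, all DMSO libraries. At 24 h neither gene passed with any drug, and rosiglitazone gave -0.56 ± 0.16 (SE, adjusted p = 0.0176) for CDX1 and 0.33 ± 0.13 (SE, adjusted p = 0.0836) for CDX2. In a fit of only the groups compared, both passed, CDX1 as lower (-0.56, adjusted p = 0.00852) and CDX2 as higher (0.33, adjusted p = 0.00515), and CDX1 also passed with scaling by library size (-0.65, adjusted p = 0.00358). The 4 CDX2 levels with rosiglitazone at 24 h, 17.3, 18.6, 20.8 and 19.2 CPM, lay above all 4 DMSO levels, 13.5, 16.2, 16.1 and 14.3 CPM.

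SOX9, the factor of stem and Paneth cells, did not pass with any drug, and it passed as lower with rosiglitazone at 48 h with scaling by library size (-0.35, adjusted p = 0.0037). Its level was 199.8 ± 13.0 CPM (mean ± SD, n = 4) with DMSO at 24 h and 156 ± 8.95 CPM at 48 h, and the drug groups lay between 137 ± 21.8 CPM (T0901317, 48 h) and 214 ± 19.3 CPM (rosiglitazone, 24 h). The 95% intervals of the log2 fold change at 48 h were -0.19 to 0.20 for GW3965, -0.39 to 0.0068 for T0901317 and -0.37 to 0.02 for rosiglitazone. GW3965 replicate 1 at 24 h, one of the libraries that stood apart, held the lowest SOX9, CDX1 and CDX2 of its group. It also held the lowest NEUROG3 (4.87 CPM), SPDEF (60.3 CPM), DLL1 (5.16 CPM) and POU2F3 (1.44 CPM), and the highest HES1 (23.9 CPM).

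The 2 LXR agonists, at the same dose and times, differed in NEUROG3, SPDEF and DLL1 at 48 h, and no difference in POU2F3 was detected. At 24 h none of the 10 genes passed in the direct comparison by edgeR, 4 had an unadjusted p under 0.05 (ATOH1, NEUROG3, SPDEF and DLL1, all higher with GW3965), where 0.193% of all genes passed as higher with GW3965, 0.597% passed as lower and 4.83% were higher at an unadjusted p under 0.05. DESeq2 passed 1 of the 10 genes and 1.71% of all genes. Without GW3965 replicate 1 the edgeR count was 2, and without GW3965 replicate 3 it was 1. At 48 h, 3 of 10 genes were higher with GW3965 and the other 7 did not pass, where 5.03% of all genes were higher and 3.32% were lower. These were NEUROG3 (0.81 ± 0.12, adjusted p = 1.85e-04), SPDEF (0.80 ± 0.07, adjusted p = 1.49e-06) and DLL1 (0.69 ± 0.12, adjusted p = 6.62e-04), each on the log2 scale with its SE. ATOH1 differed by 0.55 ± 0.12 (adjusted p = 0.0214) at 24 h and 0.59 ± 0.23 (adjusted p = 0.0902) at 48 h, which did not pass. At 48 h, DESeq2 and a fit of only the groups compared each passed 4 of the 10 genes, all higher with GW3965. The 95% interval of the difference in POU2F3 was -0.54 to 0.59 at 24 h and -0.37 to 0.26 at 48 h, and that in CDX2 was -0.19 to 0.16 at 48 h.

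**Figure D3:**
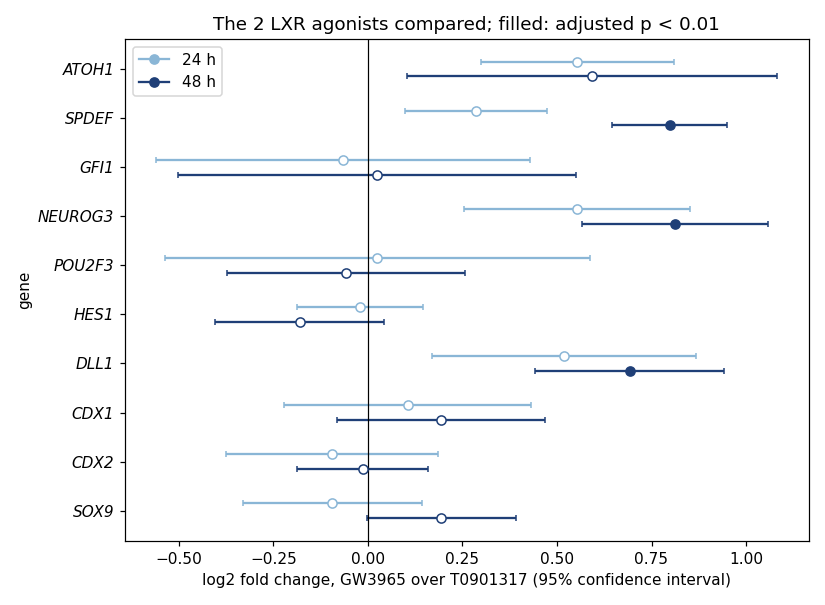
Log2 fold change of GW3965 over T0901317 with its 95% confidence interval (x axis) for each gene (y axis) at 24 and 48 h; filled points passed. NEUROG3, SPDEF and DLL1 are higher with GW3965 at 48 h, and the points of POU2F3, CDX2 and GFI1 lie near 0.

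Set directly against the LXR agonists, rosiglitazone gave lower levels of most of the genes. At 24 h, 7 of 10 genes were lower with rosiglitazone than with GW3965, where 6.09% of all genes were lower and 4.6% were higher, and 7 were lower than with T0901317, where the background was 8.13% lower and 6.01% higher. At 48 h, 8 genes were lower and HES1 was higher (0.47 ± 0.11, adjusted p = 9.95e-04) than with GW3965, where 22.6% of all genes were lower and 22.4% were higher. The HES1 call was lost with scaling by library size (0.34, adjusted p = 0.0214). Against T0901317, 8 were lower at 48 h, where the background was 24.6% lower and 23.7% higher. POU2F3 was lower, with a log2 fold change of -2.72 ± 0.19 (adjusted p = 4.87e-10) against GW3965 and -2.78 ± 0.19 (adjusted p = 2.59e-10) against T0901317. ATOH1 differed by -4.78 ± 0.37 (adjusted p = 1.80e-09) against GW3965 and -4.19 ± 0.38 (adjusted p = 1.42e-08) against T0901317 at 48 h, and without rosiglitazone replicate 1 these values were -5.76 and -5.17. For GFI1, 3 calls were lost without single libraries. Against GW3965 at 48 h (-1.02 ± 0.28, adjusted p = 0.00475) the call was lost without GW3965 replicates 2 or 4 or rosiglitazone replicates 1, 2 or 3, with values from -1.02 to -0.87. Against T0901317 at 48 h (-0.995 ± 0.28, adjusted p = 0.00514) it was lost without T0901317 replicates 2 or 4 or rosiglitazone replicates 1, 2 or 3, with values from -0.997 to -0.84. Against GW3965 at 24 h (-1.26 ± 0.27, adjusted p = 0.002) it was lost without rosiglitazone replicate 1 (-1.14).

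The response to a drug was also compared between the times, as the difference between the log2 fold changes at 48 and 24 h. With GW3965 it differed for 5 of 10 genes, where 21.6% of all genes differed, with HES1 (-1.32 ± 0.14, adjusted p = 8.91e-09) more negative and CDX1 (1.02 ± 0.21, adjusted p = 2.32e-04), CDX2 (0.65 ± 0.16, adjusted p = 0.00205), SPDEF (0.52 ± 0.12, adjusted p = 8.24e-04) and ATOH1 (0.89 ± 0.26, adjusted p = 0.00842) more positive at 48 h. T0901317 responses differed for 3 genes, where the background was 17.4%, namely HES1 (-1.16 ± 0.14, adjusted p = 1.14e-07), CDX1 (0.94 ± 0.21, adjusted p = 8.75e-04) and CDX2 (0.57 ± 0.16, adjusted p = 0.00788). For rosiglitazone 4 genes differed, all more negative at 48 h, where the background was 2.45%: ATOH1 (-2.50 ± 0.41, adjusted p = 2.24e-04), DLL1 (-1.21 ± 0.24, adjusted p = 0.0021), CDX2 (-0.98 ± 0.17, adjusted p = 3.18e-04) and NEUROG3 (-0.95 ± 0.21, adjusted p = 0.00532). POU2F3 did not pass with either LXR agonist, at 1.16 ± 0.40 (adjusted p = 0.0254) and 1.25 ± 0.40 (adjusted p = 0.0199). Of these calls, ATOH1 with GW3965 was lost when any of 14 of 16 libraries was left out (adjusted p up to 0.0233) and held only without GW3965 replicate 4 at 24 h or DMSO replicate 4 at 48 h, and CDX2 with T0901317 was lost without any of 12 of 16 (adjusted p up to 0.0248). The latter held only without DMSO replicate 1 or T0901317 replicate 3 at 24 h, or without replicate 2 of DMSO or of T0901317 at 48 h. NEUROG3 with rosiglitazone was lost (adjusted p up to 0.0164) without any of DMSO replicates 1 and 4 and rosiglitazone replicates 2, 3 and 4 at 24 h, and DMSO replicates 1 and 4 and rosiglitazone replicate 4 at 48 h. The ATOH1 value with rosiglitazone was -3.48 without rosiglitazone replicate 1 and -2.06 without replicate 3 at 48 h.

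DMSO cells themselves changed between 24 and 48 h, and a change with time in culture cannot be told apart from a difference between the 2 sets of libraries. Higher at 48 h were HES1, given above, and DLL1 (0.70 ± 0.14, adjusted p = 1.29e-04), 2 of 10 genes where 19.7% of all genes were higher. Lower were ATOH1 (-1.11 ± 0.19, adjusted p = 8.14e-06), CDX1 (-1.04 ± 0.15, adjusted p = 7.60e-07), CDX2 (-0.49 ± 0.12, adjusted p = 6.48e-04) and SOX9 (-0.36 ± 0.11, adjusted p = 0.00709), 4 of 10 where 18.9% were lower. The SOX9 call was lost when any of 6 of the 8 DMSO libraries was left out, all but DMSO replicate 3 at 24 h and DMSO replicate 2 at 48 h, with adjusted p up to 0.0287. At 48 h the LXR agonist groups held HES1 at 26.1 ± 2.57 (GW3965) and 29.5 ± 3.92 CPM (T0901317), beside 22.7 ± 1.75 CPM with DMSO at 24 h, and CDX1 at 3.45 ± 0.401 and 3.01 ± 0.460 CPM, beside 3.42 ± 0.146 CPM with DMSO at 24 h (mean ± SD, n = 4).

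The other genes of each lineage were described from lists that leave out the 10 regulators, to be read beside the share of all genes given above for the same comparison. Among goblet cell genes, 9 of 11 tested were lower with rosiglitazone at 48 h, 7 of them 2-fold, and 1 was higher, with a median log2 fold change of -1.06 beside -0.0115 over all genes. The largest decreases were SPINK4 (-2.73 ± 0.48, adjusted p = 1.75e-04), CREB3L1 (-2.70 ± 0.09, adjusted p = 6.72e-14), which encodes a transcription factor of secretory cells, and TFF3 (-2.41 ± 0.14, adjusted p = 1.35e-10), a trefoil peptide, and MUC2, the main gel-forming mucin, was also lower (-1.06 ± 0.13, adjusted p = 2.24e-06). KLF4, a zinc finger factor of goblet and surface cells, was the gene that rose (1.07 ± 0.11, adjusted p = 3.68e-07). At 24 h, 5 of 11 were lower with rosiglitazone and 1 was higher. With T0901317 at 48 h, 7 of 11 were lower, 4 of them 2-fold, among them KLF4 (-1.46 ± 0.11, adjusted p = 6.30e-09), and with GW3965 3 were lower and 1 was higher. At 24 h, GW3965 gave 2 lower and 1 higher, and T0901317 gave 1 higher.

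Enteroendocrine genes other than NEUROG3 were lower with rosiglitazone at 48 h in 5 of 11 tested, all 5 called 2-fold, with a median log2 fold change of -1.5. The transcription factors RFX6 (-1.82 ± 0.21, adjusted p = 1.05e-06), INSM1 (-1.66 ± 0.18, adjusted p = 5.53e-07) and ISL1 (-1.64 ± 0.16, adjusted p = 1.57e-07) led them. At 24 h, 2 of 8 were lower with rosiglitazone and 1 with GW3965. At 48 h, 2 of 11 were higher and 1 was lower with GW3965, and 1 was lower with T0901317.

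Tuft cell genes other than POU2F3 included 5 of 11 that were higher with GW3965 at 48 h, 3 of them 2-fold, with a median log2 fold change of 0.577, and 4 of 11 that were higher with T0901317, 2 of them 2-fold, with a median of 0.452. PTGS1, which encodes a cyclooxygenase, rose with both agonists (1.39 ± 0.10, adjusted p = 2.06e-09 and 1.90 ± 0.10, adjusted p = 2.71e-11), as did TRPM5, the taste channel of tuft cells (0.95 ± 0.19, adjusted p = 3.14e-04 and 0.89 ± 0.19, adjusted p = 6.54e-04), and ASCL2, which is also a stem cell factor (1.47 ± 0.20, adjusted p = 5.68e-06 and 1.02 ± 0.20, adjusted p = 3.78e-04). With GW3965, PLCB2 rose as well (2.18 ± 0.56, adjusted p = 0.0032), with mean levels in CPM of 0.391 ± 0.0640 with the drug and 0.0856 ± 0.0816 with DMSO. Rosiglitazone lowered 4 of the 11 at 48 h, among them TRPM5 (-1.11 ± 0.21, adjusted p = 3.58e-04) and PLCG2 (-1.33 ± 0.23, adjusted p = 1.18e-04), and 2 at 24 h. At 24 h PTGS1 was the 1 gene of the 11 that rose with T0901317.

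Absorptive enterocyte genes split in 2 directions with rosiglitazone. At 48 h it lowered 9 of 15 and raised 3, with a median log2 fold change of -0.831. MEP1A (-3.78 ± 0.50, adjusted p = 7.23e-06), GUCA2B (-3.41 ± 0.64, adjusted p = 2.86e-04) and GUCA2A (-3.24 ± 0.65, adjusted p = 5.94e-04) fell most, all from DMSO means of at most 1.03 CPM, and FABP1, a fatty acid binding protein (3.96 ± 0.18, adjusted p = 3.94e-12), and KRT20, a keratin of differentiated epithelium (1.75 ± 0.12, adjusted p = 1.71e-09), rose. With GW3965 and with T0901317, 6 of 15 were higher at 48 h, and FABP1 rose with both (2.54 ± 0.18, adjusted p = 1.43e-09 and 1.69 ± 0.18, adjusted p = 4.29e-07). At 24 h, 5 of 15 were lower and 2 were higher with rosiglitazone, 2 were higher with GW3965 and 1 with T0901317.

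**Figure D4:**
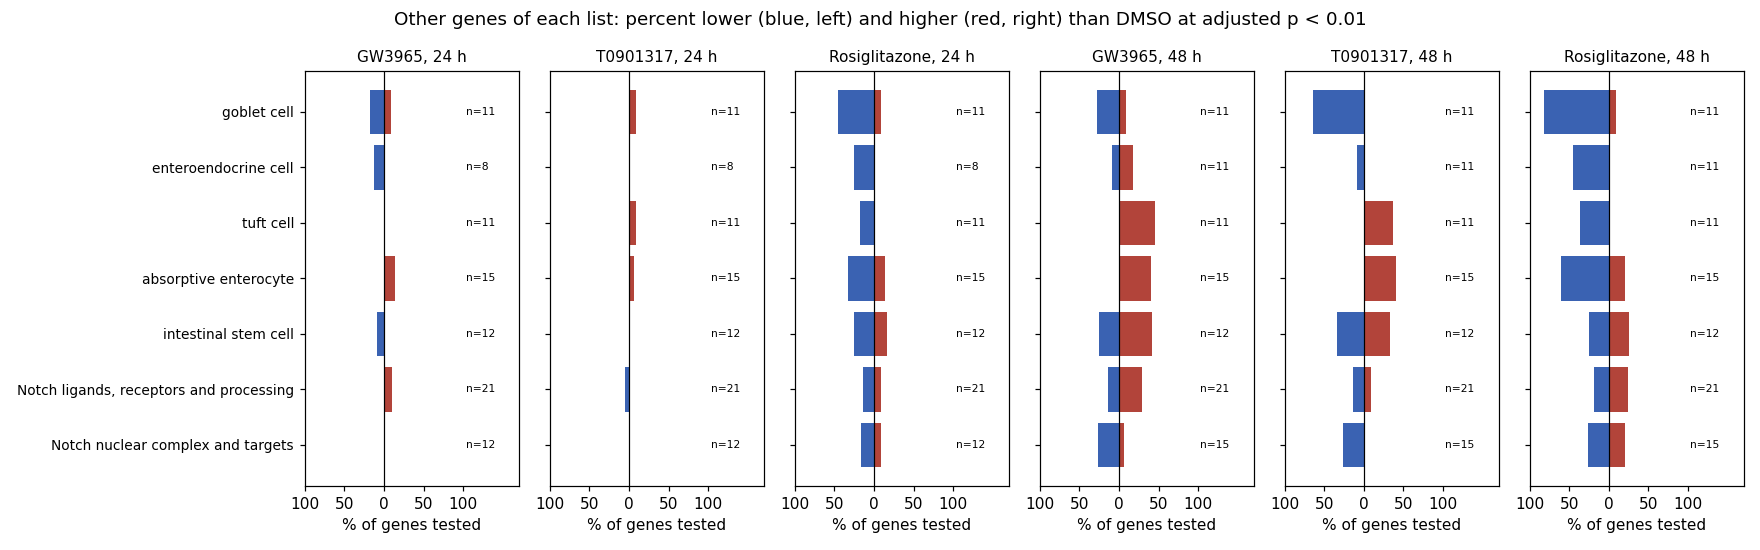
Percent of the tested genes of each list, without the 10 regulators, that were lower (blue, drawn to the left) or higher (red, drawn to the right) than DMSO at an adjusted p under 0.01; n is the number of genes tested. With rosiglitazone at 48 h, 9 of 11 goblet cell genes lie on the lower side, and with GW3965 at 48 h 5 of 11 tuft cell genes lie on the higher side.

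Other ligand, receptor and processing genes of the Notch pathway moved both ways at 48 h, in shares near those of all genes for T0901317. Of 21 other ligands, receptors and processing genes, rosiglitazone raised 5 and lowered 4 at 48 h, GW3965 raised 6 and lowered 3, and T0901317 raised 2 and lowered 3. For T0901317 these are 9.52% and 14.3% of the list, below the 14% and 16.1% of all genes, and the 3 genes lowered by GW3965 are 14.3%, below 17.5%. The 6 genes raised by GW3965 are 28.6%, above 16.1%. Rosiglitazone raised 23.8% and lowered 19% of the list, above the 12.3% and 13.1% of all genes. The ligand DLL4 was lower with rosiglitazone at 24 h (-1.70 ± 0.12, adjusted p = 5.78e-09) and 48 h (-1.85 ± 0.12, adjusted p = 9.33e-10), and DLL3 was lower at 48 h (-3.34 ± 0.47, adjusted p = 1.57e-05). JAG1, a ligand of the Jagged type, was higher with rosiglitazone at 48 h (1.40 ± 0.17, adjusted p = 3.36e-06) and lower with GW3965 (-1.48 ± 0.18, adjusted p = 1.35e-06) and T0901317 (-1.83 ± 0.18, adjusted p = 1.19e-07). At 24 h rosiglitazone raised 2 and lowered 3, GW3965 raised 2 and T0901317 lowered 1.

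Of 15 other genes of the Notch nuclear complex and its targets, 4 were lower and 1 was higher with GW3965 at 48 h, 4 were lower with T0901317, and 4 were lower and 3 were higher with rosiglitazone. The lower genes are 26.7% of the list with each drug, beside 17.5%, 16.1% and 13.1% of all genes, in that order. The higher genes are 6.67%, 0% and 20%, beside 16.1%, 14% and 12.3%. HES6, a HES family member that counters HES1, was lower with rosiglitazone at 24 h (-1.17 ± 0.11, adjusted p = 1.06e-07) and 48 h (-1.90 ± 0.12, adjusted p = 3.18e-10), and the corepressor gene TLE1 was higher at 48 h (1.10 ± 0.08, adjusted p = 3.89e-09) while TLE2 was lower (-1.40 ± 0.20, adjusted p = 1.64e-05). RBPJ, the DNA-binding subunit, was lower with GW3965 at 48 h (-0.37 ± 0.07, adjusted p = 1.71e-04). At 24 h, 2 of 12 were lower and 1 was higher with rosiglitazone.

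Stem cell genes moved both ways at 48 h, GW3965 raising 5 of 12 and lowering 3, T0901317 raising 4 and lowering 4, and rosiglitazone raising 3 and lowering 3. LGR5, the stem cell marker, was lower with GW3965 at 24 h (-1.07 ± 0.13, adjusted p = 1.30e-05) and higher with T0901317 at 48 h (1.40 ± 0.30, adjusted p = 9.49e-04), and MYC was lower with both agonists at 48 h (-1.11 ± 0.10, adjusted p = 2.13e-08 and -1.65 ± 0.10, adjusted p = 1.44e-10). Of 31 other intestinal transcription factors at 24 h, rosiglitazone raised 5 and lowered 10, GW3965 raised 1 and lowered 3, and T0901317 raised 1. The 10 lowered by rosiglitazone are 32.3%, beside 6.52% of all genes, and the 5 raised are 16.1%, beside 5.81%. At 48 h, 32 such genes were tested. GW3965 raised 7 and lowered 12, T0901317 raised 3 and lowered 13, and rosiglitazone raised 7 and lowered 10. The lower genes are 37.5%, 40.6% and 31.2%, beside 17.5%, 16.1% and 13.1% of all genes, in that order. The higher genes are 21.9%, 9.38% and 21.9%, beside 16.1%, 14% and 12.3%. ID1, an inhibitor of basic helix-loop-helix factors such as ATOH1, was lower with GW3965 (-1.996 ± 0.09, adjusted p = 1.61e-12) and T0901317 (-2.01 ± 0.09, adjusted p = 1.77e-12), and its relative ID2 was lower with rosiglitazone (-1.79 ± 0.08, adjusted p = 7.09e-12). Only 4 Paneth cell genes other than SOX9 could be tested, and EPHB3 was lower with rosiglitazone at 48 h (-2.11 ± 0.12, adjusted p = 5.83e-11) while PLA2G2A was higher (1.89 ± 0.44, adjusted p = 0.00221) and MMP7 was lower (-1.26 ± 0.13, adjusted p = 4.83e-07).

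The genes whose pattern was most like that of each 2-fold regulator were taken by Pearson correlation over the 8 group means of log2 CPM among 14508 genes at most, which describes a likeness over groups that share a cell line and controls. For ATOH1 they were PIGM (0.995), PDZRN3 (0.984) and DDC (0.977), the last of which makes monoamines in endocrine cells. NEUROG3 was nearest to RIMBP2 (0.994), ENTPD8 (0.979) and RCOR2 (0.978), and SPDEF to HES6 (0.989), NOTUM (0.986) and KIF19 (0.979). GFI1 was nearest to MAST4 (0.981), SH3RF2 (0.97) and POU2AF1 (0.969). POU2F3 followed AL139819.1 (0.99), SCD (0.988), a fatty acid desaturase gene, and TMEM135 (0.984). HES1 was nearest to ASAH2 (0.986), C12orf35 (0.986) and ASAH2C (0.985), of which ASAH2 and ASAH2C are near-identical copies that may share reads. DLL1 was nearest to MATN2 (0.989), PIK3R3 (0.984) and KLK12 (0.982), and CDX1 to AXIN2 (0.994), a Wnt target, PLCG1 (0.993) and AC112229.7 (0.991). Among the regulators themselves, NEUROG3 and SPDEF had a correlation of 0.971 and NEUROG3 and DLL1 of 0.942 over the same 8 means.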

How the data were processed

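RNA was sequenced in 32 libraries of HT29 cells. The files deposited by the authors hold unnormalized read counts for each Ensembl gene, from paired-end sequencing of Nextera libraries. The submitters' processing notes name TopHat, Cufflinks and build hg19, and the sources used here do not give the counting program or its strand setting. The study's methods name DESeq for differential expression. Columns headed ROSA were read as rosiglitazone. The peak lists were not used here, because no gene positions of their build were at hand, so the planned distances of peaks to the genes were not computed.

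Counts were filtered with filterByExpr, scaled by TMM and fitted with edgeR 4.0.16 in R 4.3.3, all 16 libraries of a time point together and all 32 for differences between times. Quasi-likelihood tests covered 21781 genes at 24 h, 22470 at 48 h and 23140 in the joint fit, with Benjamini-Hochberg adjustment over all of them, with a biological coefficient of variation of 0.0981, 0.101 and 0.0998. Each SE of a log2 fold change was back-calculated as its size divided by the square root of the quasi-likelihood F. The confidence intervals were built from these SEs. At very low counts, as for ATOH1 with rosiglitazone at 48 h, they may understate the uncertainty. CPM come from the joint scaling. The labels do not say whether replicates were separate cultures, so p-values measure the spread between these libraries, whose counts differed by more than sampling noise (chi-square of at least 4.31 per degree of freedom for every pair within a group). The members and gene lists were chosen with earlier results of these data known. Named were all 10 regulators, up to 3 genes per list and direction by size of change among those called 2-fold, lineage-defining genes, and the 3 most correlated genes. Genes of other cell types were named where they passed.

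On simulated counts for rosiglitazone against DMSO at 48 h (22229 genes), the test recovered 97% of genes changed 3-fold and 50% of genes changed 1.5-fold, with 4 false calls. For the response to rosiglitazone at 48 h against 24 h, the test recovered 90% and 29%, with 1 false call. The changed genes were drawn above a minimum expected count, so recovery at lower counts was not measured. Alternatives were DESeq2 1.42.0, library size or RLE scaling, other filters, only the groups compared, a replicate block, a test against a 1.5-fold change and leaving out libraries. Plots were drawn with matplotlib 3.10.9 in Python 3.11.15.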

Additional observations from a re-analysis of the deposited data

Results flagged for a closer look

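In 8 of 80 groups of 4 libraries, 1 library lay far from the others by Dixon's criterion, where chance alone marks about 1 in 20 groups. The libraries were those with ATOH1 at 6.43 CPM (DMSO, 24 h), NEUROG3 at 2.10 CPM (rosiglitazone, 24 h), SPDEF at 63.5 CPM (T0901317, 24 h) and 33.9 CPM (rosiglitazone, 24 h), POU2F3 at 2.40 CPM (T0901317, 24 h) and 0.457 CPM (rosiglitazone, 24 h), DLL1 at 4.73 CPM (T0901317, 48 h) and CDX1 at 2.30 CPM (GW3965, 24 h). The last is GW3965 replicate 1, which also lay farthest from its group over all genes.

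The response to a drug differed between 48 and 24 h, by a test of the difference itself, for 12 pairs of gene and drug. On the log2 scale the differences were 0.89 (ATOH1), 0.52 (SPDEF), -1.32 (HES1), 1.02 (CDX1) and 0.65 (CDX2) for GW3965. For T0901317 they were -1.16 (HES1), 0.94 (CDX1) and 0.57 (CDX2), and for rosiglitazone -2.50 (ATOH1), -0.95 (NEUROG3), -1.21 (DLL1) and -0.98 (CDX2). DMSO cells also changed in HES1, DLL1, ATOH1, CDX1 and CDX2 between the times.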

How the results depend on the processing

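Of 80 results that passed, 72 still passed whichever single library was left out, and the 8 that did not are named with their libraries in the report. DESeq2, RLE scaling and no filter kept the call of all 80. Against a 1.5-fold change, 3 genes passed with rosiglitazone and 1 with T0901317 at 24 h, and at 48 h 4 passed with rosiglitazone and 3 with either LXR agonist, fewer by the construction of that test. Scaling by library size called 2 genes 2-fold with T0901317 at 24 h and ended the call of HES1 for rosiglitazone against GW3965 at 48 h (0.34) and of the ATOH1 response to GW3965 by time (adjusted p = 0.0102). It gained calls for CDX1 at 24 h (-0.65) and SOX9 at 48 h (-0.35) with rosiglitazone, for 7 and 9 genes in all, beside 6 and 8. It turned 3 values that had not passed, CDX1 with GW3965 (-0.029) and SOX9 with rosiglitazone (-0.00056) at 24 h and SOX9 with GW3965 at 48 h (-0.039). DESeq2 passed 1 gene between the LXR agonists at 24 h and 6 in the response to T0901317 by time, beside 0 and 3, and the cause was not tested. With GW3965 at 48 h, DESeq2 and a fit of only the groups compared each passed ATOH1 and DLL1, for 8 genes beside 6, and the latter fit also passed CDX1 and CDX2 with rosiglitazone at 24 h, for 8 genes beside 6. DESeq2 and that fit each passed 4 genes between the LXR agonists at 48 h, beside 3.

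With 1 library left out, values that had not passed changed sign, at 24 h for CDX1 (-0.046 to 0.19), HES1 (-0.065 to 0.015) and SOX9 (-0.19 to 0.026) with GW3965, HES1 (-0.044 to 0.045) and SOX9 (-0.065 to 0.040) with T0901317 and POU2F3 with rosiglitazone (-0.81 to 0.052). At 48 h these were GFI1 (-0.23 to 0.16) and SOX9 (-0.032 to 0.030) with GW3965 and GFI1 with T0901317 (-0.28 to 0.13). The 2-fold count with T0901317 at 24 h ran from 1 to 2 and the count between the LXR agonists at 24 h from 0 to 2. Without rosiglitazone replicates 1 and 3 at 48 h, a choice made after seeing the data, 7 genes passed and 4 were 2-fold, GFI1 lost its call (-0.91) and ATOH1 stood at -4.65. Libraries of the same number did not deviate together as a rule, though single pairs did (correlations from -0.41 to 0.488 at 24 h and -0.167 to 0.299 at 48 h). The median correlation was -0.0247 at 24 h and 0.0214 at 48 h, beside -0.00491 and -0.00526 for libraries of different number. With a replicate block only the ATOH1 response to GW3965 by time lost its call (0.89, adjusted p = 0.0165). Between libraries of different number, correlations ran from -0.513 to 0.41 at 24 h and -0.292 to 0.235 at 48 h. A replicate block does not model such shared deviations, and their source was not tested. A filter of 1 CPM left no value for GFI1 at 24 h, and the planned levels per kilobase and peak distances were not run. Counts were low for POU2F3 with DMSO and rosiglitazone (5 to 22 per library), GFI1 with rosiglitazone (8 to 20) and ATOH1 with rosiglitazone at 48 h (0 to 11).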
